A study of Mus musculus with 6 samples.

Results

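The genes described here encode secreted platelet-derived growth factors (PDGF), vascular endothelial growth factors (VEGF) and endothelin 1, with 3 of their receptors. They were chosen by symbol, as 10 of the 18820 genes that have a probe set of 1 symbol on the array, and each was read from its only such probe set. The arrays compared 3 samples of mouse mammary EpRas tumor cells kept for 14 days with TGF-β1 at 2 ng/ml (long-term EMT cells) with 3 samples of EpRas cells left untreated over the same time (control cells). EpRas cells are EpH4 mammary epithelial cells of BALB/c background that stably overexpress the Ha-Ras oncogene, so that the control cells carry Ha-Ras as well, and the results are those of 1 cell line in culture. The question was how expression of these genes differed once the cells had gone through a long-term epithelial–mesenchymal transition (EMT).

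PDGF and VEGF chains are related secreted proteins that work as dimers. PDGF chains bind the receptor tyrosine kinases PDGFRα and PDGFRβ, which are best known in fibroblasts, pericytes and smooth muscle, while VEGF chains bind VEGF receptors, which are best known in blood and lymphatic endothelium. Endothelin 1 is a short vasoconstrictor peptide, cut out of a longer precursor, which acts on G protein-coupled receptors. In the mammary gland and in breast tumors these ligands are known as signals from epithelial or tumor cells to the surrounding stroma and vessels.

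Values are log2 values made with the Robust Multi-array Average (RMA). The test was that of limma, its p-values adjusted by Benjamini-Hochberg across 35556 probe sets, and a gene "rose" or "fell" only at an adjusted p under 0.05 with a fold above 1.5. Group means are given ± SD (n = 3 arrays per group) and log2 fold changes with the standard error of the fit (SE). As background served the olfactory receptors, of whose 1006 probe sets 95% had a mean value under 4.48, and all 10 genes lay above it in both groups. The lower quartile of the arrays was 4.01 to 4.06 and the upper 8.46 to 8.49, but control replicate 1 stood apart. Across probe sets it correlated with the other controls at r = 0.984 to 0.987, against 0.995 between those controls, and results that rest on it are given without it as well. *Cdh1*, the epithelial cadherin whose loss marks EMT, had 4.78, 4.31 and 4.34 in long-term EMT cells, against 10.27, 9.31 and 9.12 in control cells, a difference that follows the treatment labels. All 12 mammary epithelial markers on a list chosen with earlier results of these data known lay above background in both groups. *Cdh1* in long-term EMT cells did so only just, and 5 of the 12 fell. *Elf5* (4.62 in long-term EMT and 4.66 in control cells) and *Krt5* (4.75 and 4.61) lay close to background in both groups. The simple epithelial keratins *Krt8* and *Krt18* averaged 12.79 and 12.57 in long-term EMT cells and 12.79 and 12.56 in control cells.

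Of the 10 genes, 3 rose in long-term EMT cells and none fell. Those that rose were the ligands *Edn1*, *Pdgfb* and *Pdgfc*. Over all 18820 genes, 1.47% rose and 1.49% fell. Of the 7 ligands, 6 had all long-term EMT values above all control values, as had 12.6% of all genes. *Pdgfra*, *Pdgfrb* and *Vegfb* had all long-term EMT values below all control values, as had 11.5% of all genes. The median log2 fold change was 1.01 over the 7 ligands and -0.95 over the 3 receptors, against 0.02 over all genes. The median of the 3 receptors, none of which passed, is the value of *Pdgfra*, which was -0.64 without control replicate 1. Without control replicate 1, 6 of the 10 genes rose (2.00% of all genes), namely the 3 above with *Pdgfa*, *Vegfa* and *Vegfc*, and none fell (2.13% of all genes).

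**Figure D1:**
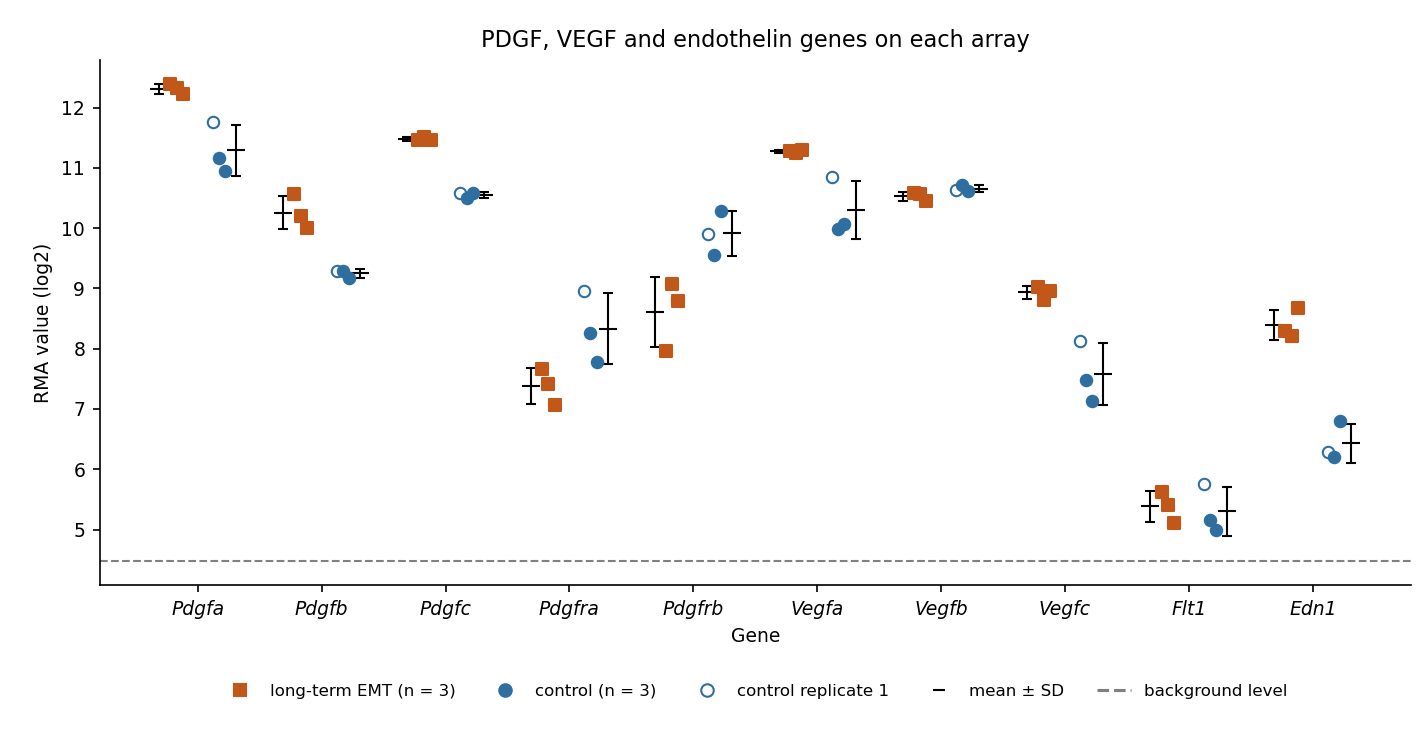
Log2 RMA value (vertical axis) of the 10 genes (horizontal axis) on each array, with long-term EMT cells as squares and control cells as circles, the mean ± SD of each group in black (n = 3) and the background level of 4.48 as a dashed line. Control replicate 1 is the open circle. The long-term EMT squares lie above the control circles for 6 of the 7 ligands and below them for *Pdgfra*, *Pdgfrb* and *Vegfb*, and the groups overlap for *Flt1*.

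The DNA before the start sites of *Edn1* and *Pdgfc* is shown because these are the genes that rose and that have an entry in the RefSeq promoter table used here (GRCm38.p6). Of the 10 genes, 8 have an entry, with 10 start sites in all. The 250 bases before the start are printed from 5′ to 3′ on the strand of the gene, and capitals mark CAGAC or its reverse complement GTCTG, the short sequence that Smad proteins, the transcription factors of TGF-β signaling, are known to bind.
Edn1, plus strand, chr13:42301226-42301475: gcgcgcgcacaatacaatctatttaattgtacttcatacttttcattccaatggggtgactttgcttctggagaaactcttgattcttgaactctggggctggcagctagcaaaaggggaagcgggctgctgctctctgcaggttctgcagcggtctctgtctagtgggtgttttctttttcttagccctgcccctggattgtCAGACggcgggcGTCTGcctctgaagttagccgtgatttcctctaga
Pdgfc, plus strand, chr3:81036166-81036415: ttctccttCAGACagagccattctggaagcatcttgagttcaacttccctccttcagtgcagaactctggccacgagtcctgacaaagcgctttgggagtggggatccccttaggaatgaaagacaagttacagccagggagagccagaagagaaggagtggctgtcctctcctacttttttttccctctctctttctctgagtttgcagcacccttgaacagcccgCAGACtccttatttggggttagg
The window of *Edn1* held 2 matches, which start 47 and 35 bases before the gene's start, and that of *Pdgfc* held 2, which start 242 and 23 bases before it. Such short matches are common. CAGAC was found on either strand in 5 of the 10 windows of these genes (those of *Pdgfc*, *Pdgfra* and *Edn1* and both of *Vegfa*) and in 42.2% of all 32851 windows of the table. The AP-1 sequence TGANTCA was in none of the 10 windows and in 6.75% of all windows. The hypoxia response sequence ACGTG was in 1 of the 10, that of the second *Vegfa* start, and in 16.6% of all windows. The GC box GGGCGG was in 7 of the 10 and in 32.7% of all windows, and the TATA box TATAAA was in 1 of the 10, that of *Flt1*, and in 12.4% of all windows. Both strands were searched for each, and in the printed windows no match overlapped another. A match describes these letters only and does not show binding.

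The largest difference among the 10 genes was that of *Edn1*, which encodes the precursor of endothelin 1. It had 8.30, 8.21 and 8.67 in long-term EMT cells, against 6.28, 6.21 and 6.80 in control cells. The groups lay well apart, and in each group the third replicate was the highest. *Edn1* averaged 8.39 ± 0.24 in long-term EMT cells and 6.43 ± 0.32 in control cells, a 3.90-fold difference (log2 fold change 1.96, SE 0.20, adjusted p = 0.00806 from limma). It passed whichever array was left out, with log2 fold changes between 1.83 and 2.15. The 3 genes of 1 symbol with the pattern most like that of *Edn1* over the 6 arrays were *Btbd11*, *Tmeff1* and *Rbpms2*. Their values, centred on each gene's mean, differed from those of *Edn1* by a root mean square of 0.16, 0.22 and 0.23 on the log2 scale, and all 3 rose, with log2 fold changes of 1.86, 2.08 and 1.71. Genes picked by pattern on these arrays have a similar fold change by the choice itself, here and below.

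*Pdgfc* encodes PDGF-C, a chain that is secreted in a latent form and has to be cut before it binds PDGFRα. It had 11.46, 11.52 and 11.47 in long-term EMT cells, against 10.58, 10.50 and 10.58 in control cells. No other of the 10 genes varied so little within both groups, and control replicate 1 lay among the other controls. The difference was 1.91-fold (log2 fold change 0.93, SE 0.07, adjusted p = 0.00367 from limma), and *Pdgfc* passed whichever array was left out, at 0.90 to 0.94. The genes with the most similar pattern were *Ptp4a3*, *Pdlim7* and *Ptk2b*, at a root mean square difference of 0.05 each, with log2 fold changes of 0.88, 0.98 and 0.87.

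*Pdgfb* encodes PDGF-B, whose homodimer binds both PDGF receptors and which is known for drawing pericytes to vessels. It had 10.56, 10.21 and 10.01 in long-term EMT cells, against 9.29, 9.29 and 9.17 in control cells. Here the spread lay among the long-term EMT arrays, with replicate 1 the highest, and the groups did not overlap. *Pdgfb* rose 2.01-fold (log2 fold change 1.01, SE 0.15, adjusted p = 0.0273 from limma). Of the 6 fits with 1 array left out, it passed in 3. It did not pass without long-term EMT replicate 2 (adjusted p = 0.119), control replicate 2 (0.115) or control replicate 3 (0.0781). The most similar patterns were those of *Ptprn*, *Trpc1* and *Laptm5*, at root mean square differences of 0.07, 0.08 and 0.10. Of these, *Ptprn* and *Trpc1* rose and *Laptm5* did not pass.

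*Pdgfa* encodes PDGF-A, the chain that acts through PDGFRα. It had 12.39, 12.32 and 12.22 in long-term EMT cells, against 11.77, 11.16 and 10.95 in control cells. The long-term EMT values were close to each other, while control replicate 1 lay 0.72 above the mean of the other controls. *Pdgfa* did not pass, although its log2 fold change of 1.02 (SE 0.21, 95% interval 0.51 to 1.52, adjusted p = 0.0783 from limma) was as large as that of *Pdgfb*. Without control replicate 1 it was 2.39-fold higher and passed (adjusted p = 0.00575).

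Of the VEGF ligands, *Vegfc* and *Vegfa* had higher values on every long-term EMT array than on any control array, *Vegfb* had lower ones, and none passed the test with all 6 arrays. *Vegfc* encodes the main growth factor of lymphatic vessels. It had 9.03, 8.81 and 8.96 in long-term EMT cells, against 8.13, 7.48 and 7.13 in control cells. Every long-term EMT value lay above every control value, and the controls were spread over 1 log2 unit, with replicate 1 the highest. The difference was 2.56-fold (log2 fold change 1.35, SE 0.25, 95% interval 0.76 to 1.95), just short of the threshold (adjusted p = 0.0542 from limma). It passed when the adjustment was made over probe sets with 1 gene symbol only (adjusted p = 0.0299), and without control replicate 1, where it was 3.09-fold (adjusted p = 0.00558).

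*Vegfa* encodes VEGF-A, the main growth factor of blood vessels and a known target of hypoxia signaling. It had 11.28, 11.24 and 11.30 in long-term EMT cells, against 10.85, 9.99 and 10.07 in control cells. The long-term EMT arrays agreed to within 0.06, so that nearly all of the spread was that of control replicate 1, which lay 0.82 above the other controls. The log2 fold change was 0.97 (SE 0.23, 95% interval 0.42 to 1.52, adjusted p = 0.113 from limma) with all arrays. Without control replicate 1 it was 1.24, or 2.37-fold, and passed (adjusted p = 0.00253).

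*Vegfb* encodes VEGF-B, a ligand of VEGF receptor 1. It had 10.59, 10.56 and 10.45 in long-term EMT cells, against 10.63, 10.72 and 10.61 in control cells. The groups did not overlap, by a gap of 0.02, and the log2 fold change was -0.12 (SE 0.08, adjusted p = 0.617 from limma). Its 95% interval of -0.31 to 0.07 leaves out changes as large as those of the other ligands.

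None of the 3 receptors passed the test. *Pdgfra*, the receptor of PDGF-A and PDGF-C, had 7.66, 7.42 and 7.06 in long-term EMT cells, against 8.96, 8.26 and 7.78 in control cells. All long-term EMT values were the lower ones, by as little as 0.12 for the nearest arrays. The log2 fold change was -0.95 (SE 0.31, 95% interval -1.71 to -0.20, adjusted p = 0.248 from limma). Control replicate 1 lay 0.94 above the other controls, and without it the log2 fold change was -0.64 (adjusted p = 0.241).

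*Pdgfrb*, the main receptor of PDGF-B, had 7.96, 9.07 and 8.79 in long-term EMT cells, against 9.91, 9.55 and 10.29 in control cells. The groups did not overlap, and long-term EMT replicate 1 was the lowest array. The log2 fold change was -1.31 (SE 0.32, 95% interval -2.09 to -0.53, adjusted p = 0.126 from limma), and -1.31 without control replicate 1 (adjusted p = 0.166), which lay among the other controls here. With any 1 array left out, *Pdgfrb* still did not pass.

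*Flt1* encodes VEGF receptor 1, which binds VEGF-A and VEGF-B and is also made as a soluble decoy. It had 5.63, 5.41 and 5.11 in long-term EMT cells, against 5.76, 5.16 and 4.99 in control cells. In both groups replicate 1 was the highest and replicate 3 the lowest, not far above the background level of 4.48, and the groups overlapped. The log2 fold change was 0.08 (SE 0.23, 95% interval -0.48 to 0.64, adjusted p = 0.933 from limma), and its direction turned with the array left out, at -0.043 without long-term EMT replicate 1 and -0.077 without control replicate 3.

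Markers of the cells in which these receptors are best known were measured beside them. The lists of fibroblast and pericyte markers hold *Pdgfra* and *Pdgfrb* themselves, which are left out of the counts and levels given here. Of the other 9 fibroblast markers none passed, 7 had a positive and 2 a negative log2 fold change, and the mean level per array was 4.93 to 5.03 in long-term EMT cells and 4.84 to 5.32 in control cells. *Lum*, *Dpt* and *Fap* were not above background in either group. *Dcn*, the fibroblast proteoglycan decorin, had 4.44, 4.33 and 4.11 in long-term EMT cells, against 7.68, 5.98 and 4.50 in control cells, the same order of the control arrays as for *Pdgfra*. *Col1a1*, a chain of type I collagen, lay the other way, with 7.50, 7.15 and 7.06 in long-term EMT cells, against 6.84, 6.44 and 6.58 in control cells (log2 fold change 0.62, adjusted p = 0.137 from limma). *Postn*, periostin, overlapped between the groups with all arrays (log2 fold change 0.41, adjusted p = 0.571) and passed as higher without control replicate 1 (0.70, adjusted p = 0.0439). Of the other 10 pericyte and smooth muscle markers, *Mcam* rose by 1.44 and 9 did not pass, at a mean level of 5.50 to 5.66 in long-term EMT cells and 5.19 to 5.36 in control cells. With 1 array left out, *Mcam* passed only without control replicate 1 (1.66, adjusted p = 0.0116). *Rgs5*, *Kcnj8*, *Cnn1* and *Abcc9* were not above background in either group, and the other 6 were above it in both. Of these, *Acta2*, smooth muscle actin, had 9.61, 9.73 and 9.81 in long-term EMT cells, against 6.22, 8.56 and 9.81 in control cells. Its log2 fold change was 1.52 (adjusted p = 0.529 from limma), and 0.53 without control replicate 1. Of 14 endothelial markers, *Cdh5* rose by 2.49 (it passed in 2 of 6 fits with an array left out) and 13 did not pass, at a mean level of 4.75 to 4.80 in long-term EMT cells and 4.49 to 4.54 in control cells, with *Pecam1*, *Kdr*, *Tek*, *Emcn* and *Sox17* not above background in either group. The part of such cells in the values of the receptors was not tested. In bulk samples, fewer cells of a type and less RNA per cell cannot be told apart.

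**Figure D2:**
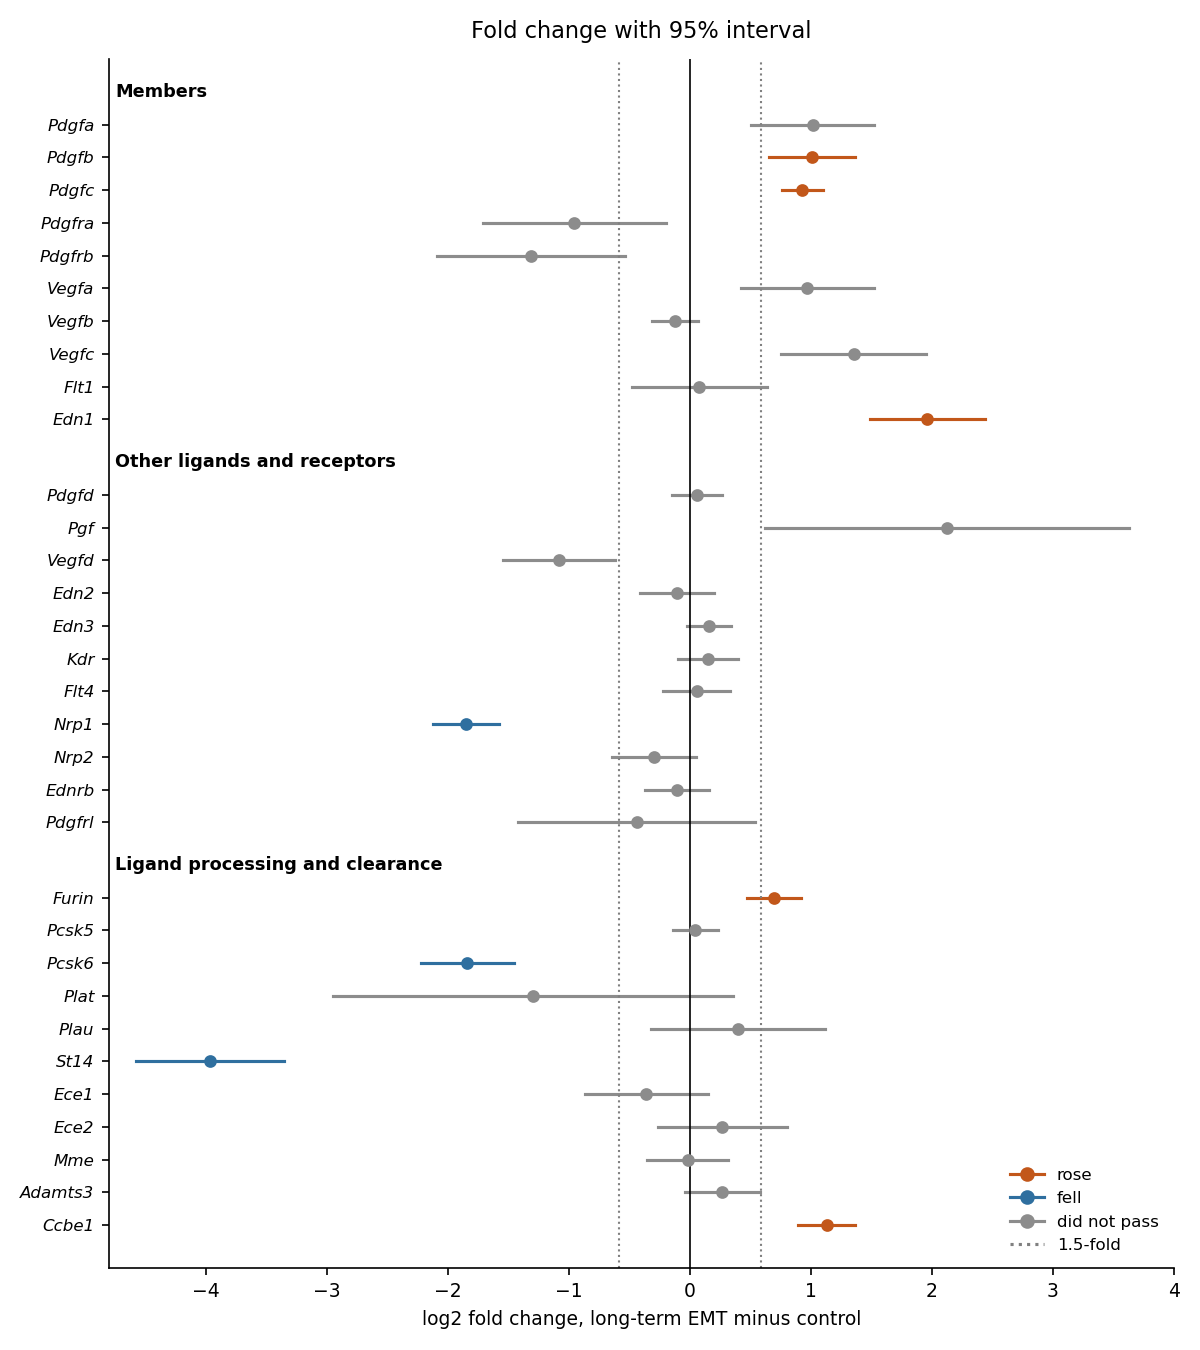
Log2 fold change of long-term EMT over control cells (horizontal axis, points) with its 95% interval from limma (lines) for the 10 genes, 11 related ligands and receptors and 11 processing or clearance genes (vertical axis). Orange genes rose, blue genes fell, grey genes did not pass, and dotted lines mark 1.5-fold. *Pdgfa*, *Vegfa* and *Vegfc* (1.02, 0.97 and 1.35) lie to the right of *Pdgfc* (0.93), with wider intervals than *Pdgfb* (1.01) and *Pdgfc*.

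Of the other ligands and receptors of these families, 11 of 12 on the list used here were measured, 1 fell and 10 did not pass. The one that fell was *Nrp1*, neuropilin 1, a co-receptor that binds VEGF-A beside the VEGF receptors and also semaphorins. It had 6.83, 6.96 and 6.97 in long-term EMT cells, against 8.83, 8.56 and 8.92 in control cells. The groups were far apart with little spread in either, and *Nrp1* was 3.60-fold lower (log2 fold change -1.85, SE 0.11, adjusted p = 0.00195 from limma) and passed whichever array was left out. Its relative *Nrp2*, the co-receptor of VEGF-C, had a log2 fold change of -0.29 (SE 0.14, adjusted p = 0.466).

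*Pgf*, placental growth factor, a ligand of VEGF receptor 1, had 10.39, 8.99 and 9.03 in long-term EMT cells, against 8.57, 6.98 and 6.48 in control cells. In each group replicate 1 was the highest, by over 1 log2 unit. Its log2 fold change of 2.13 did not pass (SE 0.62, adjusted p = 0.194 from limma). Without control replicate 1 it was 2.74 and passed (adjusted p = 0.0419), and with all arrays it passed when the replicate number was a block (adjusted p = 0.0204). *Vegfd*, the other lymphatic VEGF, had 5.74, 5.31 and 5.94 in long-term EMT cells, against 6.55, 6.99 and 6.69 in control cells. It lay in the opposite direction to *Vegfc*, with a log2 fold change of -1.08 (SE 0.19, adjusted p = 0.0502 from limma), and passed without control replicate 1 (-1.18, adjusted p = 0.0488). *Pdgfd*, the endothelin receptor gene *Ednrb* and the VEGF receptor genes *Kdr* and *Flt4* were not above background in either group. A further endothelin receptor gene on the list, *Ednra*, has no probe set of 1 symbol and was not measured here. The paper lists it among its upregulated genes.

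Several of these ligands are cut on their way to the receptor, and genes with a part in such processing moved in both directions. Of 12 genes for ligand processing and clearance 11 were measured, and 2 rose, 2 fell and 7 did not pass. *Furin*, a protease of the secretory pathway known to cut PDGF-A, PDGF-B, VEGF-C and the endothelin 1 precursor, had 10.56, 10.70 and 10.67 in long-term EMT cells, against 10.08, 9.91 and 9.85 in control cells. It rose 1.62-fold (log2 fold change 0.70, SE 0.09, adjusted p = 0.0203 from limma), near the fold threshold, and with 1 array left out it passed only without control replicate 1 (0.76, adjusted p = 0.0141).

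*Ccbe1*, a secreted protein that helps ADAMTS3 to activate VEGF-C, had 12.22, 12.15 and 12.17 in long-term EMT cells, against 11.05, 10.90 and 11.20 in control cells. It rose 2.19-fold (log2 fold change 1.13, SE 0.10, adjusted p = 0.0056 from limma) and passed whichever array was left out. *Adamts3* itself had a log2 fold change of 0.27 (adjusted p = 0.45). The furin relative *Pcsk6* had 4.97, 4.91 and 5.44 in long-term EMT cells, against 6.82, 7.06 and 6.96 in control cells, and fell 3.58-fold (log2 fold change -1.84, SE 0.16, adjusted p = 0.00574). *St14*, the epithelial serine protease matriptase, which can activate PDGF-D, fell by 3.97 (SE 0.25, adjusted p = 0.00224). *Pcsk6* and *St14* passed whichever array was left out. *Ece1* and *Ece2*, the endothelin-converting enzymes, had log2 fold changes of -0.36 and 0.27 (adjusted p = 0.559 and 0.702). *Plat*, tissue plasminogen activator, which activates PDGF-C, had 5.96, 4.97 and 4.81 in long-term EMT cells, against 8.10, 5.73 and 5.80 in control cells, with control replicate 1 far above all others.

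**Figure D3:**
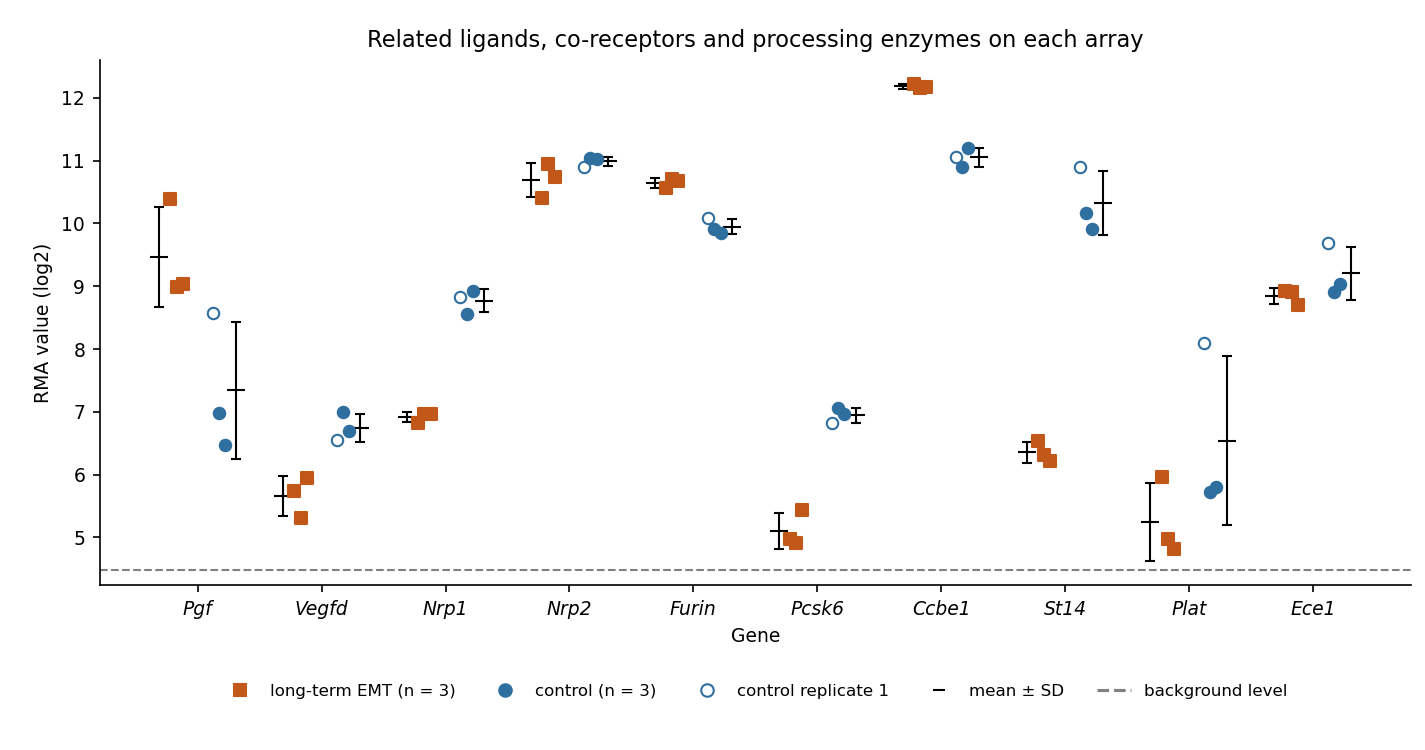
Log2 RMA value (vertical axis) on each array of 10 genes that act beside these ligands (horizontal axis), with long-term EMT cells as squares, control cells as circles, control replicate 1 open, the mean ± SD in black (n = 3) and the background level of 4.48 dashed. The genes were picked from the lists of other ligands and receptors and of processing or clearance genes. The groups do not overlap for *Pgf*, *Vegfd*, *Nrp1*, *Furin*, *Pcsk6*, *Ccbe1* and *St14*. On each full list of 11 measured genes, 2 lay apart as higher and 2 as lower, against 12.6% and 11.5% of all genes. Control replicate 1 is the highest control for *Pgf*, *Furin*, *St14*, *Plat* and *Ece1*.

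Of 21 measured genes of receptor signaling, 2 fell and 19 did not pass. *Pik3r1*, the regulatory subunit of PI3-kinase that docks on activated receptors, had 8.61, 8.73 and 8.69 in long-term EMT cells, against 10.25, 9.82 and 9.69 in control cells, and fell 2.37-fold (log2 fold change -1.24, SE 0.15, adjusted p = 0.0153 from limma). *Plcb1*, a phospholipase that acts after G protein-coupled receptors such as those of endothelin, fell by 1.23 (SE 0.16, adjusted p = 0.0206). Both were called in 2 of the 6 fits with an array left out. *Plcg1*, the phospholipase of the receptor tyrosine kinases, and *Src* reached an adjusted p under the threshold (0.0308 and 0.0402) with folds under 1.5, at log2 fold changes of 0.56 and 0.51. The median over the list was 0.14.

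Since *Vegfa* is a known target of hypoxia signaling, 20 hypoxia genes were set beside it. Of these, 1 fell and 19 did not pass, and the median log2 fold change was -0.24. The one that fell was *Epas1*, the hypoxia-inducible factor HIF-2α, with 6.21, 5.96 and 5.90 in long-term EMT cells, against 8.60, 7.78 and 7.37 in control cells (log2 fold change -1.89, SE 0.30, adjusted p = 0.0363 from limma). With 1 array left out it passed in 2 of 6 fits, among them that without control replicate 1 (-1.55, adjusted p = 0.0102). *Hif1a* had a log2 fold change of 0.09 (adjusted p = 0.696 from limma). The negative median over the 20 genes rests in part on control replicate 1. Without that array *Adm* turned from -0.14 to 0.61, *Ero1a* from -0.35 to 0.115 and *Ddit4* from -0.18 to 0.05. Most of the 20 genes stayed negative, but several of them only just, such as *P4ha1* (-0.02), *Arnt* (-0.03), *Ankrd37* (-0.06) and *Kdm3a* (-0.06). *Egln3* (-1.12, adjusted p = 0.358 from limma) and *Car9* (-0.55, adjusted p = 0.818) were lower by more and did not pass.

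Control replicate 1 had the highest control value for 19 of the 20 hypoxia genes, and lay a median of 0.62 above the mean of the other controls. Over all genes it was the highest control for 7851 of 18820, at a median of 0.01. The trait was not particular to this list. It held for 16 of 17 TGF-β targets (median 0.315) and 10 of 12 mammary epithelial markers (median 0.25) as well. For *Car9*, a carbonic anhydrase induced by low oxygen, the values were 9.78, 8.93 and 7.08 in long-term EMT cells, against 11.19, 9.69 and 8.60 in control cells. In both groups replicate 1 was the highest and replicate 3 the lowest. *Vegfa* shared the high control replicate 1 with the hypoxia genes and with genes of those other lists. Its long-term EMT values did not spread as those of *Car9* did. The part of hypoxia in the values of *Vegfa* was not tested.

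**Figure D4:**
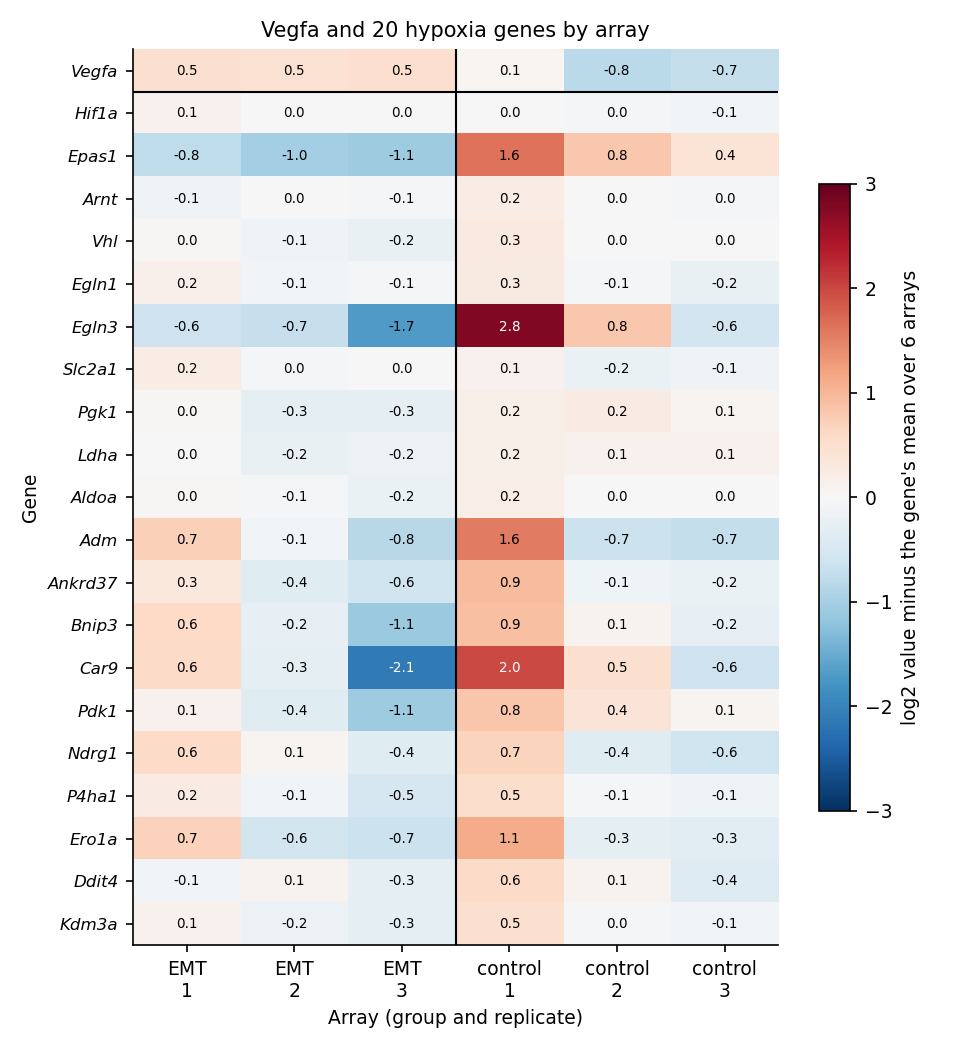
Log2 value minus the gene's mean over the 6 arrays (colour and printed numbers) for *Vegfa* (top) and 20 hypoxia genes (vertical axis) on each array (horizontal axis), with long-term EMT arrays left and control arrays right. *Vegfa* is higher on the 3 long-term EMT arrays. With all 6 arrays, 16 of the 20 hypoxia genes have a negative log2 fold change, and 19 are highest among controls in replicate 1.

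Of 17 measured TGF-β targets, 4 rose, 2 fell and 11 did not pass. *Ccn2* (connective tissue growth factor), which binds VEGF-A, had 12.07, 11.93 and 11.85 in long-term EMT cells, against 9.81, 10.15 and 10.51 in control cells, a log2 fold change of 1.79 (SE 0.18, adjusted p = 0.00835 from limma). *Rhob*, a small GTPase, rose by 1.62 (SE 0.23, adjusted p = 0.0253), and the feedback inhibitors of TGF-β signaling *Pmepa1* and *Ldlrad4* by 0.86 and 0.62. The 2 that fell were *Itgb6*, an epithelial integrin subunit, and *Smad6*, an inhibitory Smad. *Itgb6* averaged 4.09 ± 0.21 in long-term EMT cells, which is not above background, and 6.97 ± 0.28 in control cells, and was at least 5.65-fold lower (adjusted p = 0.00191). *Smad6* fell by 1.19 (adjusted p = 0.00558). *Itgb6* and *Smad6* passed whichever array was left out, *Ccn2* in 4 of 6 fits, *Rhob* and *Ldlrad4* in 2 and *Pmepa1* in 1.

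Of 18 other angiogenic factors and inhibitors, 2 rose, 1 fell and 15 did not pass. *Serpinf1*, which encodes the angiogenesis inhibitor PEDF, had 8.93, 9.74 and 9.43 in long-term EMT cells, against 6.67, 6.73 and 6.62 in control cells. It rose 6.47-fold (log2 fold change 2.69, SE 0.20, adjusted p = 0.00338 from limma). *Vash2*, a vasohibin known to promote vessel growth, rose by 0.92 (SE 0.11, adjusted p = 0.0144). *Angpt1*, a ligand of the endothelial receptor Tie2 that stabilizes vessels, had 3.65, 3.86 and 3.90 in long-term EMT cells, against 6.94, 6.30 and 6.61 in control cells. Its long-term EMT mean of 3.80 was not above background, and against the background level it was at least 4.41-fold lower (adjusted p = 0.00195). *Serpinf1* and *Angpt1* passed whichever array was left out and *Vash2* in 2 of the 6 fits.

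The calls rested on single arrays to different degrees. With each array left out in turn, *Edn1* and *Pdgfc* passed in all 6 fits. *Pdgfb* passed in 3 of them, and *Pdgfa*, *Vegfa* and *Vegfc* in 1, that without control replicate 1. *Pdgfra*, *Pdgfrb*, *Vegfb* and *Flt1* passed in none. Control replicate 1 lay between 0.69 and 0.94 above the mean of the other controls for *Pdgfa*, *Pdgfra*, *Vegfa*, *Vegfc* and *Flt1*, within 0.06 of it for *Pdgfb*, *Pdgfc*, *Pdgfrb* and *Vegfb*, and 0.23 below it for *Edn1*.

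**Figure D5:**
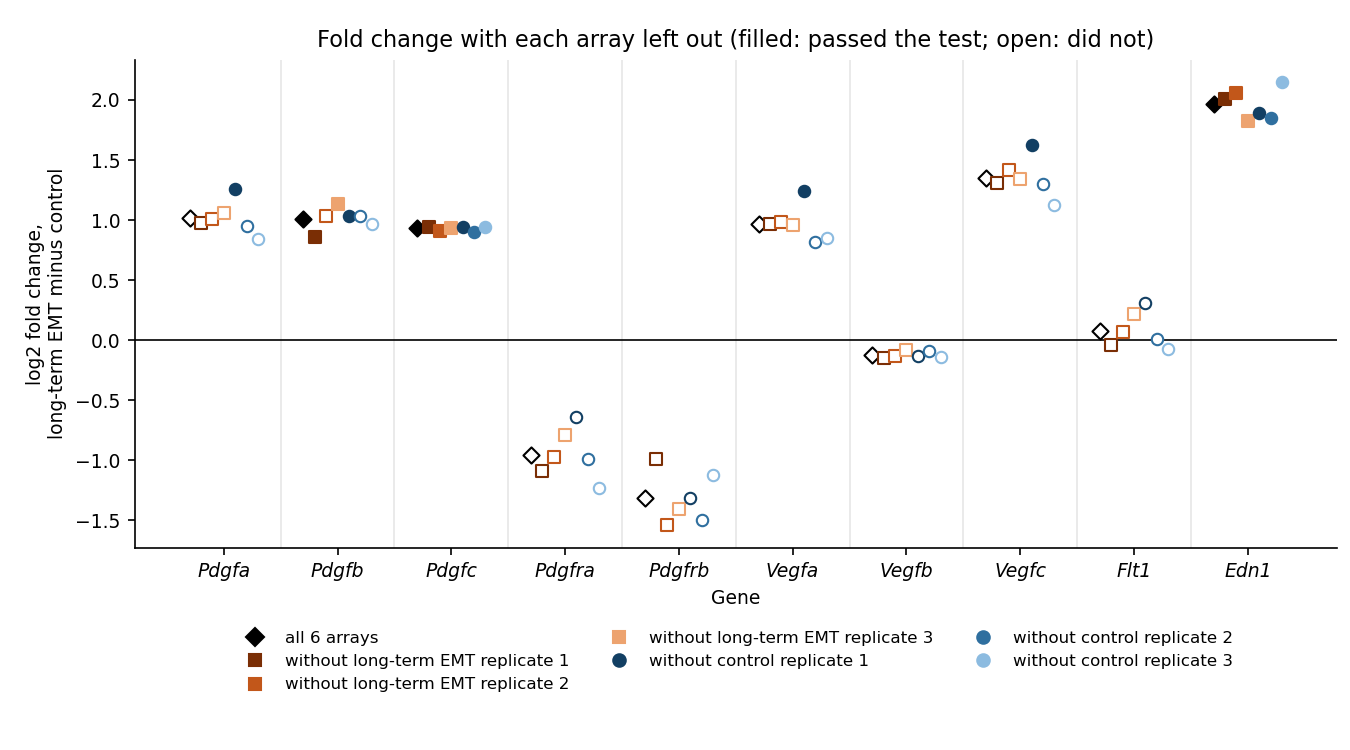
Log2 fold change of long-term EMT over control cells (vertical axis) for each of the 10 genes (horizontal axis) with all 6 arrays (diamond) and with 1 long-term EMT array (squares) or 1 control array (circles) left out. Filled marks passed the test and open marks did not. Leaving out control replicate 1 gives the highest value for *Pdgfa*, *Vegfa*, *Vegfc* and *Flt1*, and a value nearer to 0 for *Pdgfra*.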

How the data were processed

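Total RNA of 6 samples, 3 long-term EMT and 3 control, was probed on MoGene-1_1-st-v1 arrays, 1 array per sample. Affymetrix Expression Console (version not given in the sources used here) was what the authors ran, with its RMA algorithm, to obtain log2 values, deposited with 2 decimals and used here without further normalization. Of 35556 probe sets, 21218 have 1 gene symbol in the platform annotation, 1881 several and 12457 none, and only the first named genes. Genes with several probe sets were read from that with the highest mean.

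Tests were those of limma 3.58.1 in R 4.3.3 (lmFit, eBayes). The procedure was tried on simulated data with independent noise, in which no array stood apart as control replicate 1 does here. The methods' t-test was run as an alternative. The samples are called triplicates from separate wells, and the study's statistics section names independent experiments, though not for the arrays by name, so p-values may reflect only how far these samples differ, perhaps technically, and the number of arrays limits the precision. RMA quantile normalization removes overall shifts between arrays.

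The 10 genes and all lists were chosen with earlier results of these data known. Of the lists, the genes that passed were named, by size of change and no more than 4 per list, for each gene that passed the 3 genes of most similar pattern, and *Cdh1* as a check. Other list genes, *Pmepa1* and *Ldlrad4* among them, were named after their values were seen. Of 105 genes on the 6 pathway lists, 98 were measured. The remainder were not analysed here. No protein sequences were used. Alternatives were the t-test, a trended and robust prior, a replicate block, quantile normalization, equal array medians, a filter on dim probe sets, other fold thresholds, means over probe sets, probe sets with 1 symbol, another background percentile and leaving out each array.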

Additional observations from a re-analysis of the deposited data

How the results depend on the processing

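All alternatives kept the direction of each of the 10 genes except for *Flt1*, which was at -0.043 without long-term EMT replicate 1 and -0.077 without control replicate 3 (range -0.077 to 0.31 over the fits that left out 1 array). The methods' t-test with Benjamini-Hochberg adjustment left 43 higher and 26 lower probe sets, 1 of the 10 genes (*Pdgfc*), and 1 higher and 1 lower pathway gene, and lost *Edn1* (1.96, adjusted p = 0.0977) and *Pdgfb* (1.01, adjusted p = 0.15). At an unadjusted p under 0.05 the methods' t-test gave 638 higher and 688 lower probe sets and 6 higher and 1 lower of the 10 genes, adding *Pdgfa* (1.02), *Vegfa* (0.97), *Vegfc* (1.35) and *Pdgfrb* (-1.31). With probe sets of 1 symbol only, or with means over the probe sets of a gene, 5 of the 10 rose, adding *Pdgfa* (1.02) and *Vegfc* (1.35). *Vegfc* (1.35) also passed when dim probe sets were left out. In these 3 cases fewer features were tested. A fold above 2 left 195 higher probe sets and 4 higher pathway genes, and lost *Pdgfc* (0.93). With the replicate number as a block, 5 pathway genes rose, against 8 without it, of which 4 are shared. *Pgf* was gained (adjusted p = 0.0204), and *Furin*, *Vash2*, *Pmepa1* and *Ldlrad4*, and *Pik3r1* among those that fell, were lost (adjusted p = 0.0738, 0.0625, 0.0668, 0.0563 and 0.051). The block changed no call among the 10 genes. The numbers share no stated origin, so they were not taken as pairs. Deviations of same-numbered arrays correlated at 0.19, 0.02 and 0.25, and those of 2 long-term EMT arrays correlated best with the same-numbered control. Whether same-numbered arrays share an origin was not tested. When 1 array was left out, 107 to 472 probe sets were higher and 98 to 482 lower, 2 to 6 of the 10 genes rose and 0 fell, and 2 to 11 pathway genes rose and 6 to 10 fell. The log2 fold changes then lay between 0.84 and 1.25 for *Pdgfa*, 0.86 and 1.14 for *Pdgfb*, 0.81 and 1.24 for *Vegfa* and 1.13 and 1.63 for *Vegfc*. At the 99th percentile, a background level of 5.09, all 10 genes were still above background in both groups.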
